A study of Mus musculus with 3 samples.

Results

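TBX1 ChIP-seq peaks that lay between protein-coding genes were examined in mouse embryos at embryonic day 9.5. Peaks of 3 lists, 1 for each biological replicate, were merged where they overlapped by at least 1 bp, with no filter on strength. A merged region was called intergenic when its midpoint lay outside the start and end of every protein-coding gene of GENCODE vM1, the annotation of the NCBIM37 assembly, which is mm9. Of 711 merged regions, 394 were intergenic (55.4%, 95% exact binomial interval 51.7 to 59.1) and 317 were genic, with the midpoint inside such a gene. Positions outside protein-coding genes made up 61.2% of the assembled genome. The interval covers counting error only.

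Each replicate was a pool of 20 whole embryos of mixed strain, double homozygous for Tbx1 3'-Avi and for Gt(ROSA)26Sortm1.1(BirA)Mejr/J, an allele that carries BirA (FVB;129P2). The Avi allele was made in C57BL/6 zygotes and backcrossed to Swiss Webster before the BirA line was brought in. Avi is a short peptide to which the biotin ligase BirA attaches biotin, which allows pull-down of tagged TBX1 with streptavidin beads together with its crosslinked DNA. The samples formed 1 condition, and embryos without the tag were not analysed here. The tagged allele was carried by every sample, and whole embryos mix many cell types, so the tissue in which a site was bound cannot be told apart. The lists held 146, 646 and 296 peaks for replicates 1, 2 and 3, of which 80, 352 and 155 were intergenic. The reads behind each list are not known here, since the sequencing depths given in the study could not be tied to these lists. The replicate numbers are those of the sample labels, and the numbers of peaks differ from those that the study gives under the same replicate numbers.

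TBX1 is a T-box transcription factor of the pharyngeal apparatus, where cardiopharyngeal mesoderm gives rise to muscle of the face and to the outflow tract of the heart. Transcription factors of this kind often bind enhancers, which can lie far from the gene they act on and can skip the nearest one. A neighbouring gene is therefore a position on the map and is not shown here to be a target. The paper, which also measured chromatin accessibility and expression in Tbx1 mutant embryos, presents Nrg1 and Aplnr as direct targets. The strength of a peak is given here as fold enrichment, the linear ratio of ChIP over local background at the summit. Its percentile rank, from 0 to 100, is taken within its own list.

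The sequences of 101 bases centred on the strongest summit are shown for the regions on which the results turn, from the plus strand of NCBIM37. Capitals mark the word TGACAG, on either strand, which is the core of elements bound by MEIS, PKNOX and TGIF homeodomain proteins and the second part of a Tbx20 motif. The first 4 regions held this word beside the summit.
Rgma region, chr7:80340337-80340437: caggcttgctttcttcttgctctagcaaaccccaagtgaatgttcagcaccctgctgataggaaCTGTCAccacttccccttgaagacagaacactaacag
Itga1 and Gm6404 region, chr13:116650757-116650857: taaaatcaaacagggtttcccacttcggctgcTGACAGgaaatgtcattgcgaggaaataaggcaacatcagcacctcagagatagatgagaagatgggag
Fgd2 and Pim1 region, chr17:29535148-29535248: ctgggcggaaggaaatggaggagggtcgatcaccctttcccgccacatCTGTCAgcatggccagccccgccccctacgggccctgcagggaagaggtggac
Six2 region, chr17:86087769-86087869: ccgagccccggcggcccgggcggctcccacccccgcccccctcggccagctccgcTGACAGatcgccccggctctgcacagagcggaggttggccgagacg

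The next 4 regions had a peak in each of the 3 lists and none of the marked word within the 101 bases. They are shown because they lay by Trps1, by the Sox9 gene desert, by Tbx1 itself and by Nrg1.
Trps1 region, chr15:50967993-50968093: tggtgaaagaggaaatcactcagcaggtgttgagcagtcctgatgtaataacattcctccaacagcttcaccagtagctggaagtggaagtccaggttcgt
Kcnj2 and Gm11678 region, chr11:111985287-111985387: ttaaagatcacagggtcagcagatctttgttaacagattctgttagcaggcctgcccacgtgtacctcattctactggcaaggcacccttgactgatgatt
Tbx1 region, chr16:18601728-18601828: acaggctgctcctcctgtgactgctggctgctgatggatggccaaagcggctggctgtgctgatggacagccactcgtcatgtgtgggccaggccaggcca
Nrg1 region, chr8:33246200-33246300: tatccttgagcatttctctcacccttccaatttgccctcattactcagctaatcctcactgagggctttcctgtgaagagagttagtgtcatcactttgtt

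Another 4 regions of high rank are shown for their repeated units. The last 3 were tandem repeats by the measure given further on, and the first fell below its threshold.
Arhgef19 and Epha2 region, chr4:140849152-140849252: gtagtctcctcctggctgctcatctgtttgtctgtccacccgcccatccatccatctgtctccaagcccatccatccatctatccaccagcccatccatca
Prkrir and Wnt11 region, chr7:105911886-105911986: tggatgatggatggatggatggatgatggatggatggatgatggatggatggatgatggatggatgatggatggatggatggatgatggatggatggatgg
Tnp1 and Tns1 region, chr1:73879340-73879440: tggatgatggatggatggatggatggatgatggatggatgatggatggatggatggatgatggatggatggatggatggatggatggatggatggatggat
Rbfox1 and Cldn26 region, chr16:7938163-7938263: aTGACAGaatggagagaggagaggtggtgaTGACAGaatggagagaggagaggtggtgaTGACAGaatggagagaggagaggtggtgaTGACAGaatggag

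The last pair lay just upstream of copies of the U1 small nuclear RNA gene, described further on.
U1 region of replicate 2, chr12:55839697-55839797: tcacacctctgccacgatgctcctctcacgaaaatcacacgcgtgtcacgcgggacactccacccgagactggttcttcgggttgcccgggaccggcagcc
U1 region of replicate 3, chr12:55830391-55830491: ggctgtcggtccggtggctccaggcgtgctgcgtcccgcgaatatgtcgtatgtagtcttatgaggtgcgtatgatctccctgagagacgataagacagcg

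Most intergenic regions lay far from a transcription start site (TSS) of a protein-coding gene. The median distance from the midpoint to the nearest such TSS was 47.0 kb, with quartiles of 13.9 and 155 kb and a range from 31 bp to 942 kb. Over all genome positions outside genes, taken every 100 bp, the median was 103 kb. Only unassembled positions were left out, here and in the shares of positions below. Repeats where no read could be placed uniquely therefore remain among them, and their part was not tested. By list, the median over the intergenic peaks was 81.9 kb in replicate 1, 45.3 kb in replicate 2 and 61.4 kb in replicate 3 (mean 62.9 ± 18.4 kb, SD, n = 3). It was lowest in the longest list and highest in the shortest list. Regions with a peak in 1, 2 and 3 lists had medians of 40.9, 54.6 and 73.6 kb. With protein-coding genes of predicted name left out, the median over all intergenic regions was 76.2 kb. The nearest TSS had the region on its upstream side in 237 cases (60.2%) and on its downstream side in 157. Since the rule leaves out positions inside genes, the upstream side holds most of what remains, and 61.4% of all positions outside genes lay upstream of their nearest TSS.

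By distance, 29 regions (7.36%) lay up to 1 kb from a TSS, where 1.20% of positions outside genes lie. Between 1 and 5 kb there were 27 regions (6.85%, against 4.93% of positions). The 146 regions between 5 and 50 kb (37.1%) and the 179 regions between 50 and 500 kb (45.4%) held most of the class, against 29.3% and 49.4% of positions. Beyond 500 kb there were 13 regions (3.30%) in 15.1% of the positions. The share with a peak in at least 2 lists was 24.1% up to 1 kb, 29.6% at 1 to 5 kb, 33.6% at 5 to 50 kb, 40.2% at 50 to 500 kb and 38.5% beyond. The first 2 classes also held 17 of the 50 regions whose fold enrichment was under 3 in every list, described further on. Across the 394 regions the Spearman correlation of mean rank and distance was 0.13, a description over regions that come from the same 3 libraries.

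**Figure D1:**
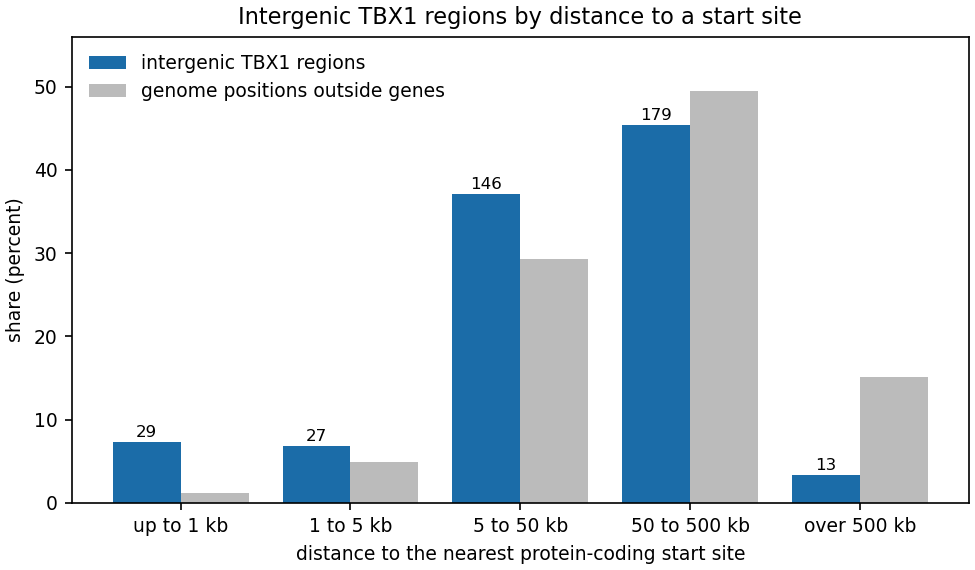
Share in percent of the 394 intergenic TBX1 regions (blue, with the number of regions above each bar) and of genome positions outside protein-coding genes (grey) in 5 classes of distance to the nearest protein-coding start site. The blue bar is above the grey bar in the 3 classes up to 50 kb and below it in the 2 classes beyond.

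Gene deserts were defined as gaps of at least 500 kb between neighbouring protein-coding genes. They held 113 intergenic regions (28.7%) in 96 different gaps, and 46.5% of the positions outside genes. Of the desert regions, 47 (41.6%) had a peak in at least 2 lists and 18 in all 3, and 49 (43.4%) overlapped the authors' consensus list of 255 regions. Of the 281 other intergenic regions, 94 (33.5%) had a peak in at least 2 lists and 30.6% overlapped the consensus. Without replicate 2, deserts held 60 regions, and with gaps bounded by genes of any biotype they held 51. The median of the mean rank was 53.6 in deserts and 42.4 outside. Gaps of at least 1000 kb held 54 regions (13.7%, against 29.3% of the positions outside genes), of which 24 were in at least 2 lists. These values are counts over regions, and the desert regions were not compared by a test.

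Of the 385 regions with a gene on both sides, the gap measured 162 kb at the median and from 1.31 to 3612 kb. The 9 other regions lay at a chromosome end. Neighbouring genes ran in the same direction in 218 cases (56.6%), away from each other in 88 (22.9%) and toward each other in 79 (20.5%). The midpoint lay in an annotated gene that does not code for protein in 39 regions. These comprised 21 cases in a lincRNA and 17 in a processed transcript. The 394 regions were spread over 347 gaps, of which 315 held 1 region, 24 held 2 and 8 held 3 or more.

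A peak in more than 1 list was found for 141 intergenic regions (35.8%, 95% exact binomial interval 31.05 to 40.7), with 94 in exactly 2 lists and 47 in all 3. Leaving out replicate 2, the longest list, there were 182 intergenic regions and 50 shared ones, and leaving out replicate 3 there were 67 shared ones. Fewer lists can share fewer regions. Among the genic regions 138 of 317 (43.5%, interval 38.0 to 49.2) were in at least 2 lists and 46 in all 3. The consensus list overlapped 135 intergenic regions (34.3%) and 117 genic regions (36.9%). It took in 44 of the 47 intergenic regions with 3 lists, 66 of the 94 with 2 lists and 25 of the 253 with 1 list, although it is described as regions common to at least 2 replicates. Of the 255 consensus regions, 135 (52.9%) had their own midpoint outside protein-coding genes.

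Intergenic and genic peaks were then compared within each list, which gives 1 difference per replicate. Intergenic peaks were shared with another list in 90%, 39.2% and 80% of cases in replicates 1, 2 and 3, and genic peaks in 93.9%, 46.9% and 86.5%. Intergenic peaks were thus shared less often in each of the 3 lists, by 6.07 percentage points on average (SD 1.94, n = 3, exact two-sided sign permutation test, p = 0.25, adjusted p = 0.75 over 6 comparisons by the Benjamini-Hochberg method). The difference was -2.51 points without replicate 2, -8.22 without replicate 1 and -2.64 with peaks of a q-value under 1e-05. With 3 lists this test cannot go below 0.25, so no comparison of this kind could pass 0.05. Sharing is also mutual, which ties the 3 differences to each other.

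The ranks of intergenic and genic peaks did not differ in 1 direction. The median rank was 45.9 for intergenic and 55.7 for genic peaks in replicate 1, 50.9 and 48.5 in replicate 2, and 50.2 and 46.3 in replicate 3. The mean difference, intergenic minus genic, was -1.18 (SD 7.53, n = 3, exact sign permutation test, p = 1, adjusted p = 1). It turned to 3.15 without replicate 1 and to 1.71 over shared peaks. Overlap with the consensus differed by -2.65 points on average (SD 5.35, n = 3, exact sign permutation test, p = 0.75, adjusted p = 1), higher for intergenic peaks in replicate 1 and lower in replicates 2 and 3. The difference in consensus overlap was -6.92 points with peaks of a q-value under 1e-05 and -0.312 without peaks under 3-fold. It was -5.25 without replicate 1 and 0.091 without replicate 3. GC content and peak width also differed in both directions between lists (mean difference -0.51 points of GC and -1.67 bp).

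**Figure D2:**
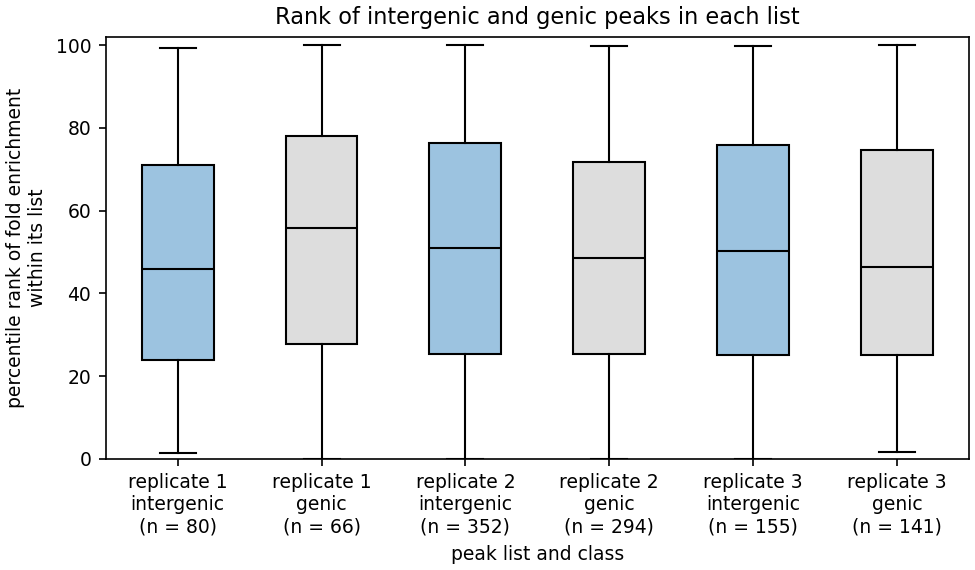
Percentile rank of fold enrichment within its list for intergenic (blue) and genic (grey) peaks of each replicate. Boxes give the quartiles and the median, and whiskers the lowest and highest peak. The intergenic median is 45.9 against 55.7 in replicate 1, and 50.9 against 48.5 and 50.2 against 46.3 in replicates 2 and 3.

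The highest mean rank among intergenic regions with a peak in all 3 lists was found between Arhgef19 and Epha2 (chr4:140848795-140849443), 8.04 kb upstream of Epha2, an Eph receptor tyrosine kinase. Fold enrichment was 18.2, 28.8 and 15.9 in replicates 1, 2 and 3, and the mean rank was 99.3. The value of replicate 2 was the highest of the 3.

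Next came the region 246 kb upstream of Trps1 (chr15:50967754-50968218), a GATA-type zinc finger repressor, in a gap of 897 kb that ends at Eif3h. It reached 10.9, 20.7 and 14.6 in the 3 replicates. The region between Kcnj2 and Gm11678 (chr11:111985138-111985618) had 10.2, 18.1 and 13.2. Gm11678 is a predicted gene, and with such names left out the region lay 658 kb upstream of Sox9, a regulator of cartilage formation. A second region of the same gap, 499 kb upstream of Sox9, had a peak in 2 lists.

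Rgma, which codes for an axon guidance molecule and BMP co-receptor, had a region 180 kb upstream (chr7:80340100-80340610) with 10.4, 18.4 and 11.4. Between the integrin gene Itga1 and the predicted gene Gm6404 (chr13:116650669-116650963) the values were 9.94, 20.3 and 9.49. With predicted genes left out, the nearest start site of this region was that of Isl1, a LIM homeodomain factor of second heart field progenitors, 449 kb away. In these 5 regions the value of replicate 2 was the highest.

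Between Mef2d, a MADS box factor of muscle, and Rhbg (chr3:88024697-88025112) replicate 1 was highest, with 13.7 against 10.03 and 9.495. The region 31 bp upstream of Ptov1 (chr7:52125053-52125324) had 11.2, 11.4 and 8.98. Between Prkrir and Wnt11, a Wnt ligand of outflow tract development, the region chr7:105911658-105912218 had 10.97, 13.0 and 8.93, and it lay 71.7 kb from the Wnt11 gene.

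Between Etnk1 and Sox5, an SRY-related factor of cartilage, the region chr6:143273094-143273482 had 10.4, 10.9 and 9.55. The region between Tnp1 and Tns1, a focal adhesion protein gene (chr1:73879196-73880115), had 9.73, 9.83 and 10.7. Between Fgd2 and Pim1, a serine/threonine kinase gene, the region chr17:29534891-29535343 had 9.52, 9.30 and 10.9. The region between Rbfox1 and Cldn26 (chr16:7938090-7938345) had 7.87, 10.03 and 14.7. All 12 of these regions overlapped the consensus list, as did 93.6% of all 47 intergenic regions with a peak in 3 lists. The consensus was made from these same replicates.

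**Figure D3:**
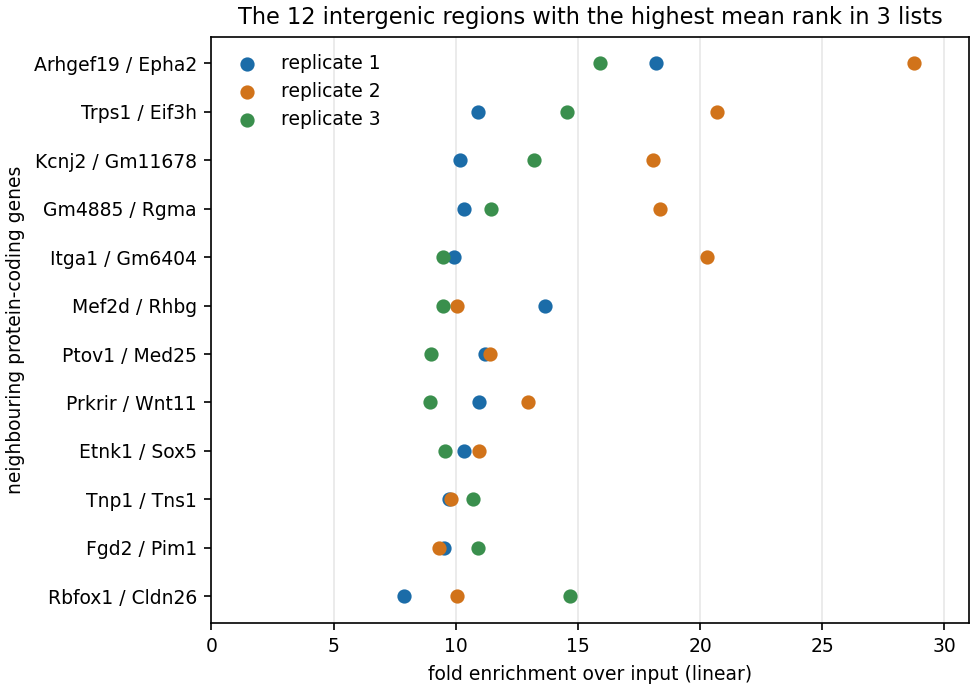
Fold enrichment over local background in replicates 1, 2 and 3, 1 point per list, on a linear axis from 0 labelled as over input. Shown are the 12 intergenic regions with the highest mean rank among those with a peak in all 3 lists. They are named by their neighbouring protein-coding genes. Replicate 2 lies to the right of the others in the first 5 regions, and the 3 points lie between 7.87 and 14.7 in the last 7.

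The shared regions farthest from any protein-coding TSS lay in wide gaps. Between Gfra2, a receptor of the GDNF family, and Fndc3a the region was 901 kb from the nearest TSS (chr14:72208761-72209034), with 8.60 and 5.12 in replicates 2 and 3. Replicate 1 had no peak there. Past Fat4, an atypical cadherin gene, the region was 751 kb away (chr3:39536911-39537287) and had 5.88, 8.48 and 8.93 in the 3 replicates. Between Adamts5, a matrix protease gene, and N6amt1 it was 635 kb (chr16:86719604-86720008), with 13.3 and 9.33 in replicates 2 and 3. Upstream of Flrt2, a guidance and adhesion receptor gene, it was 533 kb, with 5.86 and 6.48 in the same replicates.

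The regions that followed were 517 kb from the TSS of Cenpq, in the gap between Mut and 3110082D06Rik (6.64 and 4.11 in replicates 2 and 3), and 488 kb from that of Gm6816, in the gap that ends at Sox6 (4.97 and 8.45 in replicates 1 and 2). The Rbfox1 and Cldn26 region described above lay 487 kb from a TSS. The last of the 8 lay 380 kb from Gm10295 (5.51, 8.53 and 8.22). All 8 overlapped the consensus list, as did 78.0% of all 141 shared intergenic regions.

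Some gaps held more than 1 shared region. The gap of 814 kb between Thap1 and Zfp703 had a pair of regions with a peak in all 3 lists, at 111 and 551 kb from Thap1. The gap of 2976 kb between Gm1840 and Efnb2, the gene of the ephrin-B2 ligand, had a pair in 2 lists each, at 289 and 21.1 kb from Efnb2. The first of these had 6.62 in replicate 1 and 5.72 in replicate 3, and the second had 7.82 and 5.28 in replicates 2 and 3. Dact1 and Daam1, both genes of Wnt signalling, enclosed a pair in a gap of 511 kb. Fat4 and 1700017G19Rik enclosed a region in 3 lists and another in 2 lists.

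**Figure D4:**
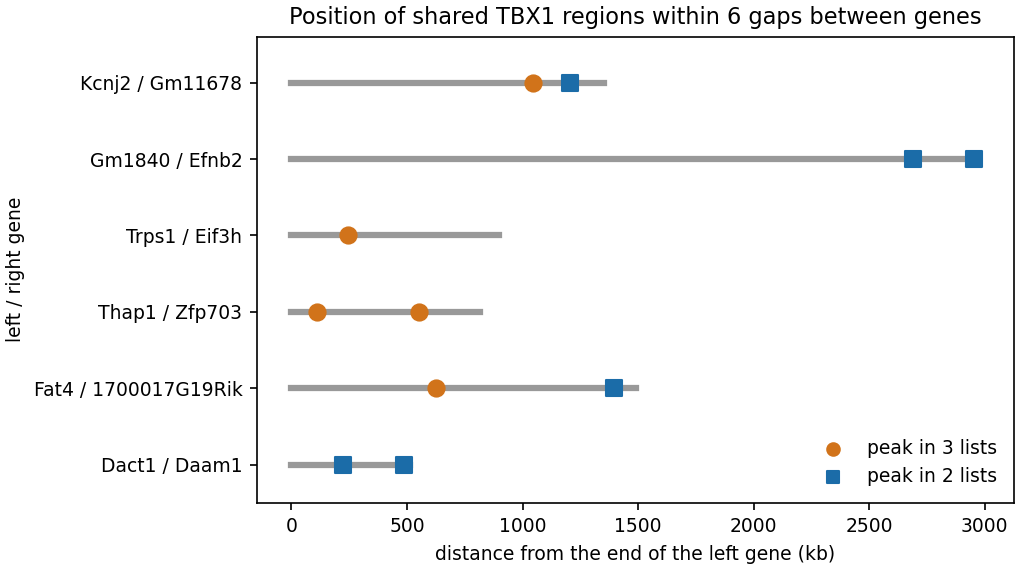
Position of the shared intergenic regions within 6 gaps between protein-coding genes, as distance in kb from the end of the left gene. Grey lines span each gap, circles mark regions with a peak in 3 lists and squares regions in 2 lists. The gaps run from 511 to 2976 kb, and 5 of the 6 hold a pair of regions.

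At the other end of the scale, the shared regions nearest to a start site lay upstream of it, as the rule leaves out the gene on the other side. The Ptov1 region, 31 bp upstream, was among the 12 of highest rank. Upstream of Sec14l5 by 129 bp (chr16:5146947-5147199) the 3 replicates had 3.94, 9.14 and 6.41. The region 227 bp upstream of Six2 (chr17:86087694-86087947), a homeobox factor of pharyngeal and kidney mesenchyme, had 5.75, 7.52 and 4.11. That 359 bp upstream of Prtg had 5.99, 6.09 and 7.70. Asb1 (180 bp) and Itpr1 (760 bp), the gene of a calcium release channel, had a region in replicates 2 and 3, outside the consensus list. The values were 5.76 and 4.94 for Asb1 and 7.10 and 6.54 for Itpr1. The remaining pair lay 782 bp upstream of Slc6a7 (7.82 and 6.14 in replicates 2 and 3) and 1.54 kb upstream of Gm10716, a predicted gene (1.68 and 1.71 in replicates 1 and 2).

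Genes of pharyngeal and heart development were then described by position. These lists were written with earlier results of these data known and hold genes beside some of the strongest regions, such as Trps1, Epha2 and Rgma. Their shares are therefore not independent of the peaks, and nothing is read from their difference to the shares over all genes, which are given as background. A gene was counted when an intergenic region lay in the gap on either side of it. Of 22367 protein-coding genes, 667 (2.98%) were next to an intergenic region of any list and 263 (1.18%) next to one with a peak in at least 2 lists. Wide gaps hold more regions, and list genes had wide gaps, with medians of both sides together of 375 kb for transcription factors, 397 kb for secreted signals, 363 kb for receptors and 261 kb for extracellular matrix, against 49.1 kb over all genes. Of the 3122 genes with at least 250 kb of gap on both sides together, 323 (10.3%) were next to any region and 144 (4.61%) next to a shared one.

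Among 36 cardiopharyngeal transcription factors in the annotation, 11 (30.6%) were next to an intergenic region and 7 (19.4%) next to a shared one. Tbx1 itself had a region 13.7 kb upstream (chr16:18601616-18601948) with 9.11, 9.05 and 9.64 in the 3 replicates. Meis1, a TALE homeodomain factor, had a region 259 kb upstream with 4.62, 8.21 and 6.79.

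The region by Tbx18, a T-box factor of the venous pole, was 0.28 kb past the gene, with 6.21 and 9.24 in replicates 1 and 2. The values of Trps1 and Six2 are given above. Hand2, Hoxb1 and Tbx3 were next to regions of 1 list.

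Among 25 secreted signals, 8 (32.0%) were next to an intergenic region and 5 (20%) next to a shared one. Nrg1, which codes for a ligand of ERBB receptors in heart development, had a region 127 kb upstream (chr8:33246091-33246393), with 8.28, 12.9 and 7.16. Vegfa, the endothelial growth factor gene, was 214 kb from a region with 8.48 and 5.72 in replicates 2 and 3. Rgma, Wnt11 and Efnb2 are described above. Fgf8, Slit1 and Slit2 were next to regions of 1 list.

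Among 20 receptors, 6 (30.0%) were next to an intergenic region and 3 (15.0%) next to a shared one. Besides Epha2, these were Cxcr4, a chemokine receptor, with a region 47.6 kb upstream (chr1:130536292-130536557; 7.82 and 6.07 in replicates 2 and 3), and Epha4, with a region 374 kb from its TSS (9.24 and 6.73 in the same replicates). Aplnr, Cxcr7 and Plxna2 were next to regions of 1 list. Those by Aplnr (4.40 in replicate 2) and Plxna2 (3.20 in replicate 2) overlapped the consensus, and that by Cxcr7 did not.

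Of 15 extracellular matrix genes, 4 (26.7%) were next to an intergenic region, and 1 (6.67%), Eln, next to a shared one. The Eln region, 41.1 kb upstream of the elastin gene, had 9.38 and 6.43 in replicates 2 and 3. Of 15 genes of heart muscle structure, 0 were next to an intergenic region, with a median gap of 30.6 kb on both sides together. The 17 shared regions next to a gene of these lists all overlapped the consensus, as did 110 of all 141 shared intergenic regions (78.0%). Gene counts are small, and the part of gap width in them was not tested beyond the share given for wide gaps.

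The 8 gaps with 3 or more intergenic regions were of several kinds. Between Kit and Kdr, genes of receptor tyrosine kinases of blood, pigment and endothelial cells, 3 regions lay 77.7, 81.2 and 158 kb from the TSS of Kdr. They were called in 1 list each, with 5.64 in replicate 1 and 8.47 and 6.54 in replicate 2. The 5.64 peak was the strongest unshared intergenic peak of replicate 1. Between Ppap2b and Usp24, 3 regions in a gap of 1083 kb had 7.14 and 5.43 in replicate 2 and 7.51 in replicate 3. Between Tinagl1 and Gm853, 3 regions within 4 kb were called in replicate 2 alone, at 6.25, 6.94 and 6.25.

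A further pair of these gaps held regions by copies of the U1 small nuclear RNA gene. U1 is a part of the spliceosome and is made from many nearly identical genes. The gap between Gm16382 and Snx6 on chromosome 12 held 6 regions, each within 500 bp of an annotated U1 gene, and another 4 lay by U1 genes on chromosome 3. The strongest summit lay upstream of the U1 start in 10 of 10 regions, by 67 to 190 bp (median 143 bp). Fold enrichment was between 5.48 and 10.6. The region of replicate 2 on chromosome 12 (chr12:55839571-55839843) had 10.6 and no peak elsewhere, and that of replicate 3 (chr12:55830358-55830567) had 10.1. These were the strongest unshared intergenic peaks of the 2 lists.

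Of the 10 U1 regions, 7 were in 1 list, 3 in 2 lists and 0 in 3 lists, and 0 overlapped the consensus. The annotation holds 206 genes named U1. In all, 17 intergenic regions (4.31%) lay within 500 bp of a gene of a small nuclear, small nucleolar or other small RNA, with the summit upstream of its start in 16. They included single regions by U2 (5.29 in replicate 2, 133 bp upstream), U5 (6.09 in replicate 3, 88 bp upstream) and U6 (5.41 in replicate 2, 146 bp upstream). None of the 17 overlapped the consensus, and 6 genic regions (1.89%) lay by such genes. The regions by small RNA genes were chosen for description after their values were seen. How reads from near-identical copies were placed was not tested.

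The other 3 gaps held weak regions. In all, 50 intergenic regions (12.7%) and 29 genic regions (9.15%) stayed under 3-fold in every list that called them. Of the 50, 12 were in at least 2 lists and 3 overlapped the consensus. On chromosome 9, 12 of them lay between 3000283 and 3033937, among near-identical predicted genes, with values from 1.30 to 1.75, and 17 genic regions lay in the same stretch. The gap of Tmem125 and Wdr65 held 3 such regions, between 2.03 and 2.68. On chromosome 17, the widest region (4246 bp, chr17:39979984-39984229) had 2.06, 2.27 and 1.79 in the 3 replicates. Without the weak regions, 129 of 344 intergenic regions (37.5%) and 128 of 288 genic regions (44.4%) were in at least 2 lists.

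Short sequence words were counted on both strands of each region and of equally wide windows at 5 kb on either side. TGACAG was in 166 of the 394 intergenic regions (42.1%, 95% exact binomial interval 37.2 to 47.2), in 61 windows on the right (15.5%) and in 50 on the left (12.7%). Median GC content was 49.9% in the regions and 44.7% in the windows on the right. Within 100 bp of the strongest summit the word was in 40.4% of regions, against 11.9% of the same windows shifted by 5 kb to the right. TGATTGAT, a word of PBX homeodomain proteins, was in 36 regions (9.14%), in 3 right windows and in 1 left window. CAGCTG, a form of the E-box bound by basic helix-loop-helix factors, was in 20.1% of regions and 11.7% of windows on either side.

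GGTGTGA, a T-box element, was in 16 regions (4.06%), 13 right windows and 20 left windows. The regions that held it comprised 13 of 1 list, 3 of 2 lists and 0 of 3 lists. Of the 135 regions that overlapped the consensus, 0 held it. Only this exact word was searched, whereas the paper reports a T-box motif in most consensus peaks by a motif search. AGATAA, a form of the GATA element, was in 11.4% of regions against 14.7% and 16.0% of windows. TGTTTAC, a forkhead word, was in 4.82% against 1.52% and 2.54%. The core of the Tbx20 motif, which contains TGACAG, was in 16 regions (4.06%), 0 right windows and 1 left window. Of these 16 regions, 13 were in 1 list, 3 in 2 lists and 0 in 3 lists, where 64.2%, 23.9% and 11.9% of all intergenic regions lay. TGAT followed directly by TGACAG was in 2 regions, 2 right windows and 0 left windows. These words were partly chosen from motifs that the study found in overlapping regions, so their counts are not independent of it.

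**Figure D5:**
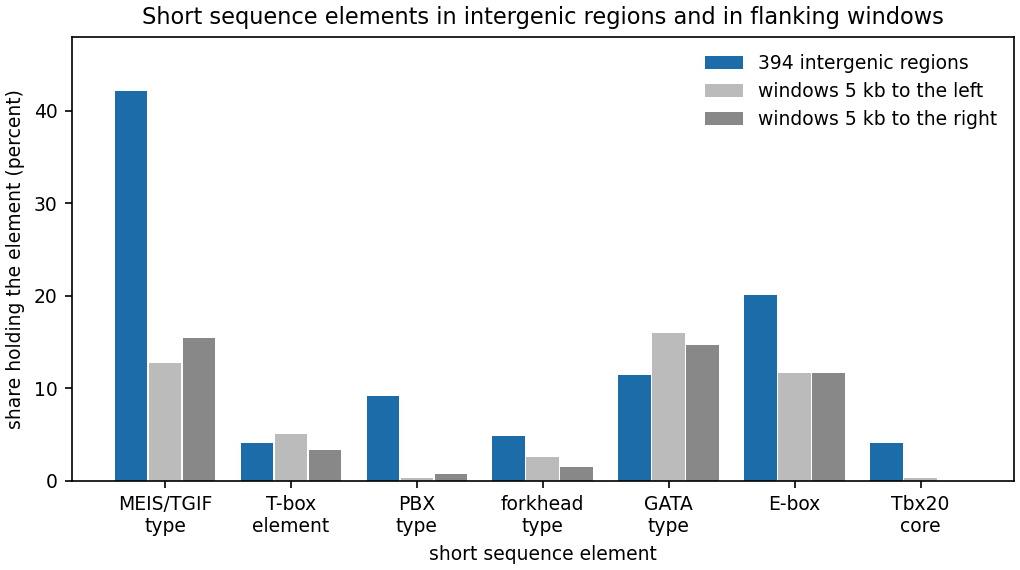
Share in percent of the 394 intergenic regions (blue) and of equally wide windows at 5 kb on the left (light grey) and right (dark grey) that hold each of 7 short sequence elements. The MEIS/TGIF type element is in 42.1% of regions against 12.7% and 15.5% of windows, and the T-box element in 4.06% against 5.08% and 3.30%.

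TGACAG was found in regions of 1 list and in shared ones. It was in 104 of the 253 regions of 1 list (41.1%, against 11.9% of their windows on the right), in 38 of the 94 of 2 lists (40.4%, against 18.1%) and in 24 of the 47 of 3 lists (51.1%, against 29.8%). The median widths of these regions were 194, 266.5 and 348 bp, and within 100 bp of the strongest summit the shares were 39.9%, 40.4% and 42.6%. The copy nearest to the strongest summit lay at a median of 24.5, 29.5 and 28.0 bp from it. Of the weak regions, 3 of 50 held the word (6%), and of the others 163 of 344 (47.4%). By distance, it was in 34.5% of regions up to 1 kb from a TSS, 18.5% (5 of 27) at 1 to 5 kb, 45.9% at 5 to 50 kb, 44.1% at 50 to 500 kb and 38.5% beyond. It was in 53.1% of regions in gene deserts, against 37.7% outside deserts, and in 57.8% and 43.0% leaving out the weak regions.

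Within each list, intergenic peaks held TGACAG less often than genic peaks. The shares were 40% and 48.5% in replicate 1, 40.9% and 44.6% in replicate 2, and 43.9% and 50.4% in replicate 3. The mean difference was -6.21 points (SD 2.43, n = 3, exact two-sided sign permutation test, p = 0.25, the smallest it allows, adjusted p = 0.75). Most peaks of replicates 1 and 3 were shared with another list, which ties the 3 differences to each other. Over merged regions the difference was smaller, with 42.1% intergenic and 44.2% genic.

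Repeated units, as in the sequences shown above, were measured as the share of the 101 bases that equal the base a fixed number of positions before, for shifts of 1 to 40. With a threshold of 80%, 39 intergenic regions (9.90%) and 35 genic regions (11.04%) were tandem repeats, and 3 of the 394 windows 5 kb to the right of the intergenic summits (0.761%). Among intergenic regions, 25 were in 1 list, 6 in 2 lists and 8 in 3 lists. The 3 among the 12 of highest rank were those of Wnt11 (88.4% at a shift of 15), Tns1 (87.6% at a shift of 4) and Cldn26 (100% at a shift of 29). The Epha2 region reached 64.9%. The Cldn26 region held 9 copies of TGACAG, 1 in each repeated unit of the stretch shown. Of the 50 weak regions, 22 (44.0%) were tandem repeats. Leaving all 39 out, TGACAG was in 160 of 355 regions (45.1%). The measure was chosen after the sequences were seen, and its part in peak strength was not tested.

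Of the 141 shared intergenic regions, 31 did not overlap the consensus list, 28 of them in 2 lists and 3 in all 3. Among these, 12 were weak, 4 lay by small RNA genes and 6 were tandem repeats, of which some were also weak. The 3 in all lists were weak (1.61, 1.61 and 1.85 by Axin2, 2.22, 2.06 and 2.48 between Sel1l and Gm9726, and the wide region on chromosome 17). Stronger examples were a tandem repeat between 4931429L15Rik and Cadm1 (9.05 and 7.85 in replicates 2 and 3), a region between Osr1, a zinc finger factor of heart and kidney mesoderm, and Nt5c1b (6.27 and 9.22 in replicates 1 and 2), and a region between Zbtb40 and Wnt4 (8.21 and 6.07 in replicates 2 and 3). The blacklist with which the authors filtered the consensus was not used here.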

How the data were processed

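The authors trimmed reads with cutadapt and Trim Galore, aligned them to mm9 with Bowtie2 2.3.4, removed discordant, duplicate and multiply mapped reads, and called peaks replicate by replicate against input (MACS2 2.1.2.1). Of the deposited columns, fold enrichment is a ratio, p-values and q-values are given as −log10, and the deposited score, made from the q-value, was not used. The authors' consensus list, made with bedtools 2.29, is described as regions common to at least 2 replicates outside the ENCODE blacklist, and some of its regions have a peak in 1 deposited list.

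Peaks were merged at 1 bp and placed on GENCODE vM1. All peaks lay within the NCBIM37 chromosome lengths. Coordinates are 1-based. Replicates were compared by the exact sign permutation test, with exact (Clopper-Pearson) intervals for shares. Python 3.11.15, numpy 2.4.6, scipy 1.17.1 and matplotlib 3.10.9 were used. Merging, distances, words and the test were tested on simulated data.

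The members, gene lists and words were chosen with earlier results of these data known. Named were the neighbours of the 12 regions of highest mean rank in 3 lists, the 8 farthest from and the 8 nearest to a TSS among shared regions, gaps with 3 or more regions, shared regions next to list genes, the strongest unshared peak of each list and shared regions outside the consensus. For some of these sets only examples are given. Results for some genes are not reported here. Alternatives were other overlaps, q-values, gene sets, gap widths and lists left out. Depth per list is unknown.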

Additional observations from a re-analysis of the deposited data

How the results depend on the processing

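With genes of any biotype the intergenic share was 49.9%, and deserts held 51 regions. Leaving out protein-coding genes of predicted name, chosen after seeing the data, gave a share of 60.9% and a median TSS distance of 76.2 kb. Deserts held 54 regions at 1000 kb and 47 shared regions. The share with TGACAG rose to 47.4% without regions under 3-fold, also chosen after seeing the data, and its excess over windows on the right, 26.6 points, became 30.2 without them and 22.0 in shared regions. The difference in rank, -1.18, reversed to 1.71 over shared peaks, and that in width, -1.67 bp, to 0.833 bp without peaks under 3-fold.

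Leaving out 1 list in turn gave 182 to 386 intergenic regions, 50 to 118 shared regions, 60 to 112 in deserts and an excess of TGACAG between 24.2 and 30.2 points. Without replicate 2, the longest list, these were 182, 50 and 60, and shared regions were 67 without replicate 3. The difference in rank lay between -3.71 and 3.15, that in width between -5.25 and 3.25 bp, and that in consensus overlap between -5.25 and 0.091 points. Of 112 alternatives, 93 stayed within 1.5 times a count, the 95% interval of a share, 1 SD between lists (of the values with 1 list left out, for the excess of TGACAG) of another value, or the direction of a difference between intergenic and genic peaks. Peak lists without read counts limit the precision of every value.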
